A study of Mus musculus with 17 samples.

Results

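Wnt5b and 9 further genes of the β-catenin-independent Wnt branch (Wnt11, Ror1, Ror2, Ryk, Ptk7, Vangl1, Vangl2, Celsr1 and Prickle1) were followed across 17 mouse mammary tumors. The 10 genes were picked by name and are read by 19 of the 41174 probes on the array, which stand for 28786 genes. Wnt5b was picked because it was lower in the tumors that the study had clustered as high in Wnt gene expression, so its values by cluster and by tumor type are given here as a description without a test. Of the 10 genes, 9 were measured in at least 1 tumor, where measured means that each array of a tumor carried the scanner software's mark that the tumor's color lay well above background. Over the whole array, 21874 of 28786 genes were measured in at least 1 tumor.

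Wnt5b and Wnt11 encode secreted ligands that are best known for signaling without β-catenin. Ror1, Ror2, Ryk and Ptk7 encode single-pass membrane proteins that act as receptors or co-receptors of this branch, and Vangl1, Vangl2, Celsr1 and Prickle1 encode core proteins of planar cell polarity, the system that orients epithelial cells within the plane of their sheet. In the mammary gland such signals are known for their part in the branching and outgrowth of ducts and in the migration of cells.

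The tumors arose in FVB mice that carry a transgene for p75-CUX1 (9 tumors) or p110-CUX1 (8 tumors), both of them short forms of the transcription factor CUX1, driven by MMTV regulatory sequences, which are active mainly in mammary epithelium. Every tumor carries one of these transgenes, each came from its own mouse, no mouse age is given, and no normal gland or tumor without a transgene was used here. The p75 tumors are 4 adenosquamous carcinomas, 3 solid carcinomas, 1 adenocarcinoma and 1 adenomyoepithelioma, and the p110 tumors are 6 solid carcinomas, 1 adenoma and 1 adenomyoepithelioma, so adenosquamous histology occurs with p75 alone. Epithelial cells were cut out by laser, their RNA was amplified in 2 rounds, and each tumor was hybridized with swapped dyes on 2 or 4 of 38 two-color arrays against a commercial mouse reference RNA amplified the same way. All values below are log2 ratios of tumor over reference, on which 1 unit is a doubling and 0 means the same level as the reference.

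The share of spots with this mark ran from 21.5% to 65.6% in the tumor's color and from 41.9% to 65.5% in the reference's color. The 3 tumors with the weakest signal were p110-374 (21.5%), p110-98 (23.7%) and p110-225 (25.6%), all from p110 mice, and all p75 tumors were scanned in one year and all p110 tumors in another, so transgene and scan year cannot be told apart. In 16 tumors the 7 epithelium markers averaged 1.51 to 3.67 and 5 to 7 of them were measured, beside adipocyte markers that averaged −0.08 to 4.96. Of 5 squamous markers, 4 were measured in the adenosquamous p75-80 and p75-94 (means 1.87 and 0.67), 2 in p75-101 (0.22) and 1 in p75-47 (−0.028), and 4 also in the solid p75-129 (0.13), so these markers did not set p75-47 and p75-101 apart from the solid carcinomas. In p110-121, labelled a solid carcinoma, 2 of 7 epithelium markers were measured with a mean of −1.88, and all 6 immune markers were measured with a mean of 2.00, against at most 0.02 in each of the other tumors. Wnt5b, Ryk, Vangl1 and Celsr1, which were low or not measured in this tumor, are given with and without it.

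The probes of Wnt5b and Ror2 are shown because the probes of each gene were measured in very different numbers of tumors. Each probe is a 60-base oligonucleotide, written 5′ to 3′ in the sense of the gene's transcript, with stop triplets (TAA, TAG or TGA, in any frame) in capitals. Of the first Wnt5b probe the first 30 bases are printed.
Wnt5b, A_51_P137991, chr6:119458136-119458195 (mm7, minus strand): ggaagaTGAgtgtctgTGAccctggccatt
Wnt5b, A_52_P85805, chr6:119465444-119465503 (mm7, minus strand): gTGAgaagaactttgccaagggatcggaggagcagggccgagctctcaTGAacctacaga
Ror2, A_51_P234365, chr13:52151407-52151466 (mm7, minus strand): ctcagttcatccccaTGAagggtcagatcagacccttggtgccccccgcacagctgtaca
Ror2, A_51_P234371, chr13:52152167-52152226 (mm7, minus strand): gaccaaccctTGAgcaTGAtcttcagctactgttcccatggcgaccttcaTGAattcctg

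The whole 60 bases of A_51_P137991 held a stop triplet in each of the 3 frames, whereas the second Wnt5b probe and both Ror2 probes had at least 1 frame without a stop. The second Wnt5b probe starts 7308 bases closer to the gene's 5′ end. It was measured in 4 tumors, whereas the probe nearer the 3′ end was measured in 15. For Ror2, whose probes start 760 bases apart, the 3′ probe was measured in 17 tumors and the other in 3. Among the 6 member genes with at least 2 probes on 1 strand, the probe nearest the 3′ end was measured in more tumors than the farthest probe for 5 genes (Wnt5b, Ror2, Vangl1, Vangl2 and Prickle1), and for Ror1 neither was measured. Over the array this was so for 5146 of 8361 such genes (61.5%). The brightest probe stands for a gene from here on, unless a probe is named.

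Wnt5b was above the reference in all 17 tumors, by 0.43 to 4.89 with a median of 2.89. The reference itself was measured at this probe on the arrays of 14 tumors, so for most tumors both sides of the ratio were measured. In the adenosquamous carcinomas Wnt5b stood at 2.93 in p75-47, 1.43 in p75-80, 0.43 in p75-94 and 3.29 in p75-101, with a mean of 2.02 ± 1.34 (SD, n = 4). The 4 tumors of this type thus covered most of the range of the series.

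In the 9 solid carcinomas Wnt5b ran from 0.59 in p110-121 over a median of 3.12 to 4.89 in p110-314, with a mean of 2.85 ± 1.33 (SD, n = 9). Among the other 4 tumors it was 3.02 in the p75-216 adenocarcinoma, 0.67 and 1.18 in the adenomyoepitheliomas p75-90 and p110-374, and 0.93 in the p110-98 adenoma. The types overlapped, and the adenosquamous mean lay 0.83 below the solid mean, and this ranged from 0.29 below without p75-94 to 1.25 below without p75-101, with 1.11 below without p110-121. In p110-98 and p110-374 the tumor's color was not well above background at the Wnt5b probe, so these values are limited by signal. The error of a tumor's mean over both dye orientations, estimated from the gap between them, had an SD of 0.27, against an SD of 1.34 over the 17 tumors. Among the 9470 genes measured in at least 12 tumors, 949 (10.0%) had a larger SD than Wnt5b.

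**Figure D1:**
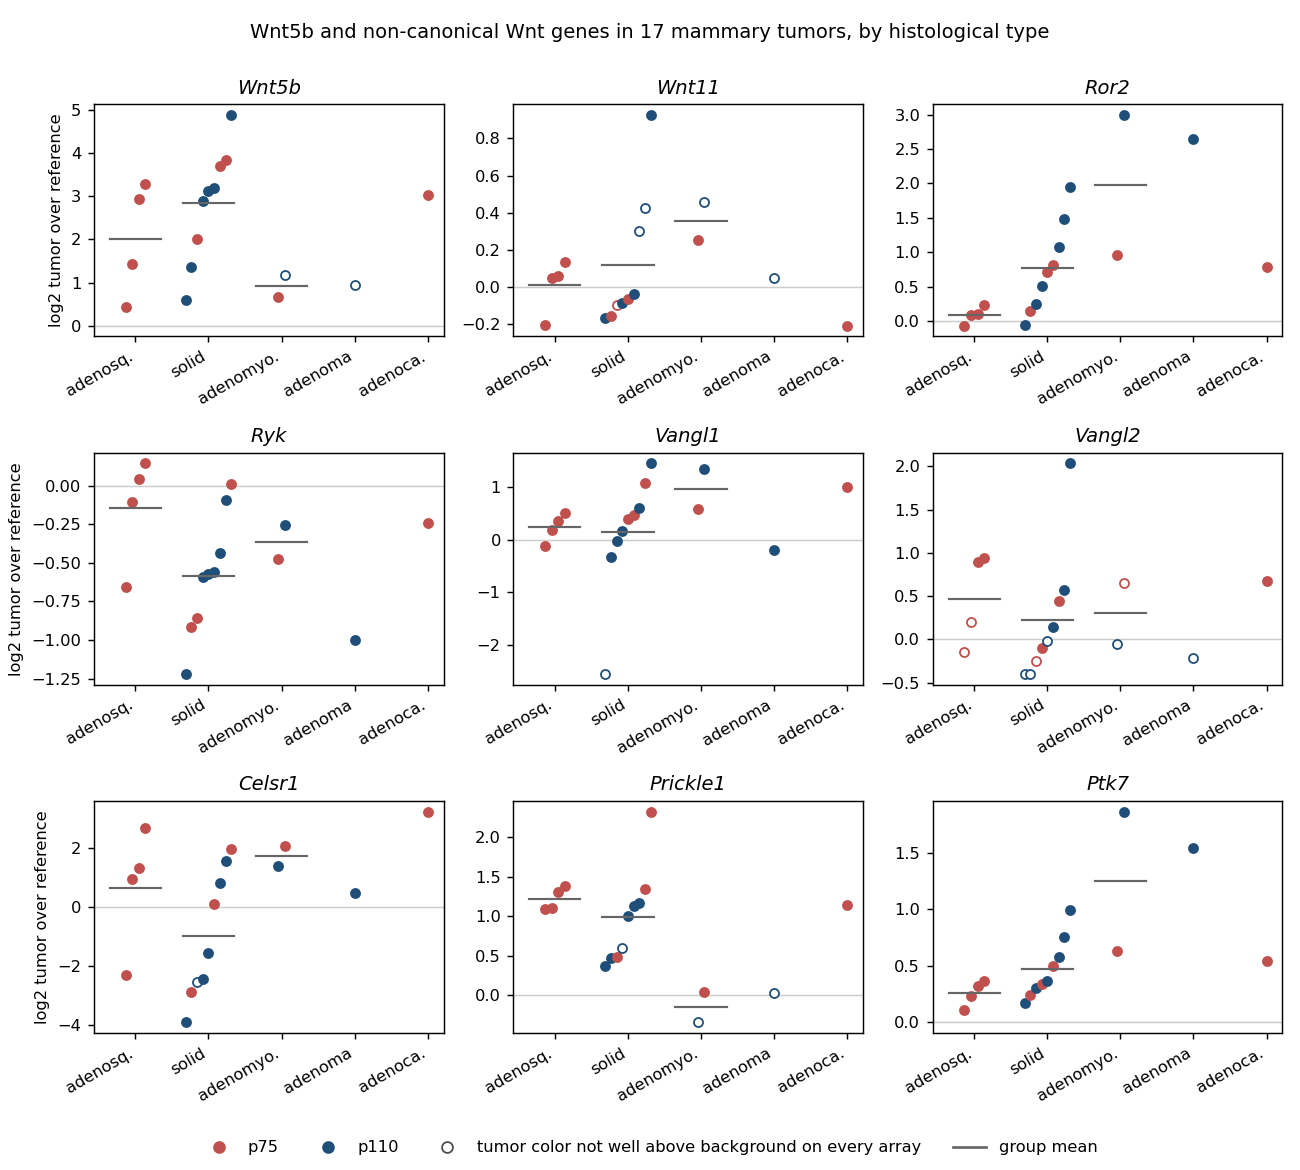
Log2 ratio of tumor over reference (vertical axis) of 9 genes in the 17 tumors, grouped by histological type along the horizontal axis. Each point is the mean of the arrays of 1 tumor at the gene's brightest probe, red marks p75 and blue p110 tumors, open points were not well above background, and bars are group means. Wnt5b lay above 0 in all 17 tumors and Celsr1 spread from −3.90 to 3.23.

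By transgene, Wnt5b averaged 2.37 ± 1.29 (SD) in the 9 p75 tumors, with values from 0.43 over a median of 2.93 to 3.84. It averaged 2.27 ± 1.48 (SD) in the 8 p110 tumors, with values from 0.59 over a median of 2.13 to 4.89. The groups overlapped over nearly their whole range, and the difference of 0.10 (SE 0.65, 95% interval −1.27 to 1.47) did not pass limma's test (adjusted p = 0.965) and turned to −0.55 when arrays were scaled to a common spread to −0.56 without the 3 tumors of weakest signal and to −0.14 without p110-121. The interval still allows a difference of more than 1 log2 unit in either direction.

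The study divided these tumors into clusters of high, medium and low Wnt gene expression, drawn from Wnt genes, Wnt5b and Wnt11 among them, on these same arrays, so values by cluster are a description for every gene here. In the 5 high-Wnt tumors Wnt5b was 2.93 in p75-47, 1.43 in p75-80, 0.43 in p75-94, 1.37 in p110-225 and 1.18 in p110-374, with a mean of 1.47 ± 0.91 (SD). In the 7 low-Wnt tumors it ran from 2.89 over a median of 3.29 to 4.89, with a mean of 3.56 ± 0.67 (SD). The 5 medium-Wnt tumors averaged 1.45 ± 1.05 (SD, 0.59 to 3.02), so the low-Wnt mean was the highest, and the high-Wnt and medium-Wnt means were nearly equal.

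The gap of −2.09 between the high-Wnt and low-Wnt means was −1.05 on the tumor's color alone and −1.27 with the mean of both probes. The high and low clusters overlapped in Wnt5b by the adenosquamous p75-47 (2.93) and the solid p110-416 (2.89) alone. Within the p75 tumors the high-Wnt values were 0.43 to 2.93 (n = 3) and the low-Wnt values 3.29 to 3.84 (n = 3). Within the p110 tumors they were 1.18 to 1.37 (n = 2) and 2.89 to 4.89 (n = 4). Wnt5b was picked for being lower in high-Wnt tumors, so these values are no separate support. The share of all genes split this way within a transgene was not determined. The high-Wnt p110 values come from p110-374 and p110-225, which are among the 3 tumors of weakest signal, and Wnt5b was not measured in p110-374. Adipocyte markers averaged 0.49 to 4.27 in the high-Wnt and 0.90 to 4.96 in the low-Wnt tumors, and endothelium markers 0.16 to 1.06 and 0.54 to 1.86, and their part in the Wnt5b values was not tested. The adenosquamous p75-101, which the study placed among the low-Wnt tumors, had the highest Wnt5b of its histological type. None of the 10 genes kept high-Wnt and low-Wnt tumors fully apart, while over the array 0.705% of genes did so with the high-Wnt tumors lower and 0.987% with the high-Wnt tumors higher.

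Celsr1, an atypical cadherin that links neighboring cells and carries the polarity signal between them, varied most of the 10 genes. Among the 9470 genes measured in at least 12 tumors, 95 had a larger SD. In the adenosquamous carcinomas Celsr1 was 1.33 in p75-47, 2.66 in p75-80, 0.96 in p75-94 and −2.30 in p75-101. The first 3 of these are high-Wnt tumors and the last is a low-Wnt tumor. In the 9 solid carcinomas it ran from −3.90 in p110-416 over a median of −1.56 to 1.96 in p75-534, with 4 tumors above the reference and 5 below. All of the other 4 tumors were above the reference, at 3.23 in the p75-216 adenocarcinoma, 2.08 and 1.41 in the adenomyoepitheliomas p75-90 and p110-374, and 0.46 in the p110-98 adenoma.

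The adenosquamous and solid carcinomas overlapped in Celsr1, with a difference of 1.65 (SE 1.17, 95% interval −0.87 to 4.18) that did not pass limma's test (adjusted p = 0.875). It was 2.64 without p75-101 and 0.98 without p75-80. The p75 tumors averaged 1.57 above the p110 tumors (SE 0.99, 95% interval −0.51 to 3.66, limma adjusted p = 0.517), again with overlap. Celsr1 was not well above background in p110-121 (−2.55), and without this tumor the differences were 1.46 and 1.32. Without the 3 tumors of weakest signal the p75 mean was 2.72 above the p110 mean, and with median centering in place of loess it was 2.85 above it and passed (limma adjusted p = 0.0484).

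All 5 high-Wnt tumors had Celsr1 between 0.96 and 2.66, whereas the low-Wnt tumors spread from −3.90 to 1.96. The 6 markers of basal and myoepithelial cells averaged 2.69 to 4.06 in the high-Wnt and −0.31 to 3.02 in the low-Wnt tumors. The tumors p110-314, p110-360, p110-416 and p75-101 had Wnt5b of at least 2.89 with Celsr1 of at most −1.56, limits read from these tumors' own values. Celsr1 was also low in p75-129 (−2.88) and p110-121 (−2.55), where Wnt5b was 2.02 and 0.59. The basal markers averaged −0.14 in p110-314, −0.31 in p110-416, 2.58 in p110-360 and 3.02 in p75-101, and their part in the Celsr1 values was not tested. In tissue of this kind fewer cells that express a gene and less of its RNA per cell cannot be told apart.

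**Figure D2:**
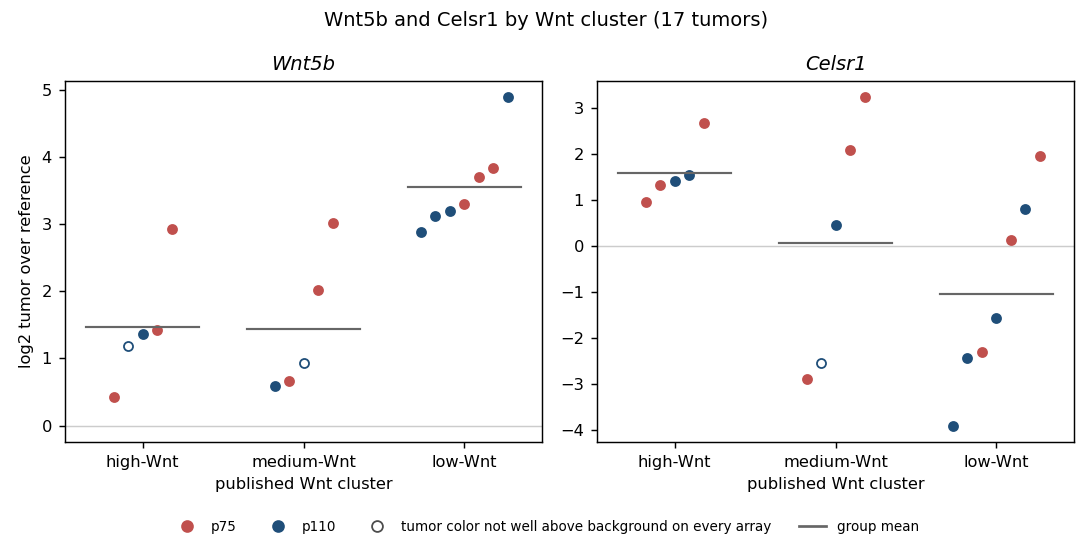
Wnt5b and Celsr1 as log2 ratios of tumor over reference (vertical axes) by Wnt cluster (horizontal axis; high-Wnt, n = 5; medium-Wnt, n = 5; low-Wnt, n = 7), with bars at cluster means. Each point is 1 tumor, colors mark the p75 and p110 transgenes, and open points mark tumors not well above background. The 5 high-Wnt tumors lay between 0.43 and 2.93 for Wnt5b and between 0.96 and 2.66 for Celsr1, and both genes overlapped with the low-Wnt tumors.

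The receptors showed a narrower range. Ror2, a receptor tyrosine kinase that binds Wnt5-type ligands, was measured in all 17 tumors. In the adenosquamous carcinomas it stood at 0.10 in p75-47, 0.23 in p75-80, −0.07 in p75-94 and 0.09 in p75-101, all close to the reference. In the solid carcinomas it ran from −0.05 in p110-314 over a median of 0.70 to 1.94 in p110-225. The adenosquamous carcinomas averaged 0.68 below the solid ones (SE 0.39, 95% interval −1.52 to 0.16), with overlap, and the difference did not pass (limma adjusted p = 0.875), with a p of 0.0587 in the exact permutation test, and on the tumor's color alone it shrank to −0.07.

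Between the transgenes, Ror2 ran from −0.07 to 0.95 (median 0.23) in p75 tumors and from −0.05 to 2.996 (median 1.27) in p110 tumors. The p75 mean was 0.94 lower (SE 0.38, 95% interval −1.74 to −0.13), with a limma adjusted p of 0.268, and with median centering in place of loess it was 0.12 higher. The highest Ror2 values, 2.996, 2.65 and 1.94, belonged to p110-374, p110-98 and p110-225, the 3 tumors with the weakest signal. Without those 3 tumors the p75 mean was 0.23 lower than the p110 mean.

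Ptk7, a catalytically inactive receptor-like kinase of the same branch, was above the reference in all 17 tumors, by 0.11 to 1.86. The adenosquamous carcinomas averaged 0.22 below the solid carcinomas (SE 0.20, limma adjusted p = 0.879), and 0.10 above them on the tumor's color alone. Its highest values also fell in p110-374 (1.86), p110-98 (1.55) and p110-225 (0.995). The p75 tumors, from 0.11 over a median of 0.34 to 0.63, averaged 0.46 below the p110 tumors, from 0.17 over a median of 0.67 to 1.86 (SE 0.20, limma adjusted p = 0.33), and with median centering they averaged 0.26 above them. Without the 3 tumors of weakest signal the p75 mean was 0.07 lower.

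Across the 17 tumors, which share the reference RNA and the array design, Ror2 and Ptk7 went together with r = 0.97. With the share of tumor-color spots well above background, r was −0.71 for Ror2 and −0.74 for Ptk7, against 0.39 for Wnt5b. Taken at the 95th percentile of spot brightness, the reference exceeded the tumor by a factor of 11.8 for p110-374, 12.4 for p110-98 and 8.51 for p110-225. With the share of spots well above background as a covariate, the differences between p75 and p110 were −0.60 for Ror2 and −0.27 for Ptk7 (limma adjusted p = 0.461 and 0.552).

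**Figure D3:**
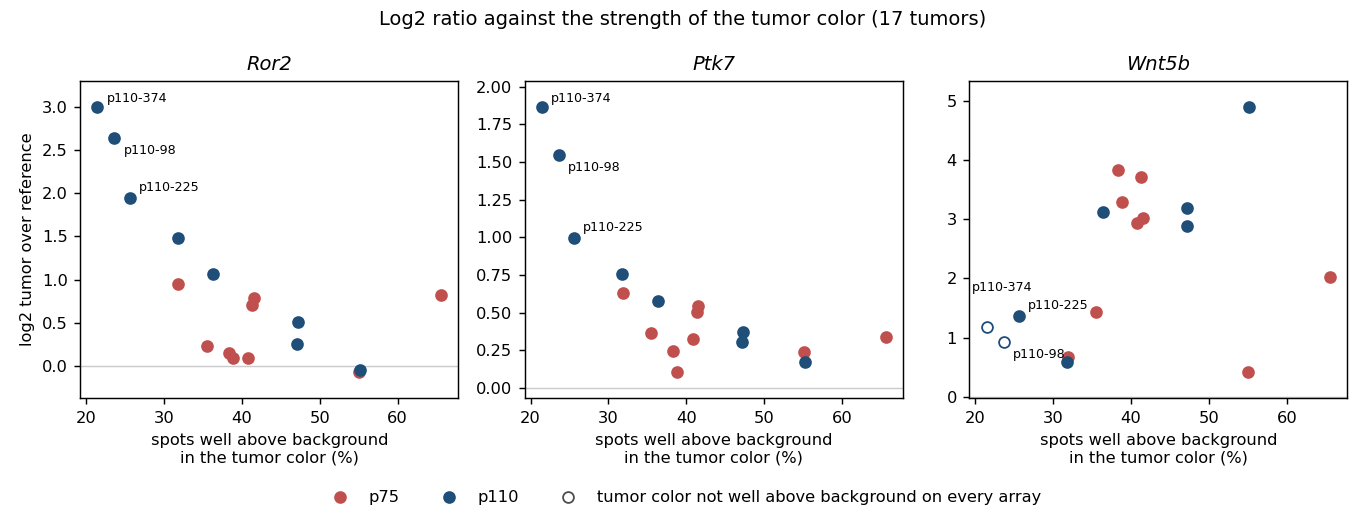
Log2 ratio of tumor over reference of Wnt5b, Ror2 and Ptk7 (vertical axes) against the percentage of tumor-color spots well above background (horizontal axes). Each point is 1 of the 17 tumors, with the 3 weakest named. Ror2 and Ptk7 were highest in p110-374, p110-98 and p110-225, at 21.5% to 25.6% of spots, whereas Wnt5b was at most 1.37 in these tumors.

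Ryk, an atypical receptor of the Wnt ligands, was measured in all 17 tumors and lay below the reference in 14, from −1.22 in p110-121 to 0.14 in p75-94. In the adenosquamous carcinomas it was −0.10, 0.05, 0.14 and −0.66, and in the solid carcinomas it ran from −1.22 to 0.01, so that the types overlapped. The difference of 0.44 (SE 0.21, 95% interval −0.02 to 0.90) did not pass (limma adjusted p = 0.875). It was 0.36 without p110-121, 0.08 on the tumor's color alone and 0.85 with median centering. Between p75 and p110 tumors Ryk differed by 0.25 (SE 0.18, limma adjusted p = 0.582), by 0.16 without p110-121, by 1.46 with median centering (limma adjusted p = 0.0589) and by −0.20 on the tumor's color alone. The array design placed this probe on chromosome 8, whereas RefSeq lists Ryk on chromosome 9, so the locus behind these values is uncertain. The second Ryk probe, designed on chromosome 9, was measured in 6 tumors, in which it ran from −0.29 to 0.10, and gave differences of the opposite sign, −0.14 by histology and −0.094 by transgene (limma adjusted p = 0.891 and 0.78). Ror1, the close relative of Ror2, was measured in no tumor and in no reference at either of its probes, although 1 array in the tumor's color and 3 arrays in the reference's color carried the mark at the brighter probe.

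Among the ligands, Wnt11 stayed near the reference. It was 0.93 in p110-143, and the other 16 tumors lay between −0.21 and 0.45. Its adenosquamous values (−0.20 to 0.14) lay inside the solid ones (−0.17 to 0.93) except for p75-101, with a difference of −0.11 (SE 0.18, limma adjusted p = 0.929) that became 0.15 on the tumor's color alone and −0.0057 without p110-143. The p75 tumors averaged 0.26 below the p110 tumors (SE 0.13, limma adjusted p = 0.404), a difference that became −0.16 without p110-143. Over the 18 alternatives other than leaving out 1 tumor it ran from −0.40 to −0.022. Wnt11 was not well above background in 5 tumors, p75-150, p110-98, p110-121, p110-225 and p110-374.

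The probes of the paralogs Vangl1 and Vangl2, membrane proteins that bind Prickle1 on the same face of the cell, are shown where they read matching stretches, to give a view of how far a probe of one could read the other. In each line the capitals mark the bases that differ within the 52 aligned bases.
Vangl1, A_52_P350687, chr3:101952138-101952197 (mm7): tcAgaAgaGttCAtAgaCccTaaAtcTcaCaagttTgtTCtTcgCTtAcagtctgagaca
Vangl2, A_51_P249777, chr1:171974792-171974851 (mm7): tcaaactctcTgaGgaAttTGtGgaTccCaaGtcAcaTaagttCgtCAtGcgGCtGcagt

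The pair was identical at 34 of the 52 bases (65.4%) and differed at 18. The Vangl1 probe of the pair was measured in 11 tumors and the Vangl2 probe in none. At its brightest probe Vangl1 was measured in 16 tumors and ran from −0.33 in p110-314 to 1.45 in p110-143. The exception was p110-121, at −2.56 and not well above background. The second Vangl1 probe had the opposite sign in 10 of 17 tumors, and in 6 of the 11 tumors in which both probes were measured. The probes of this gene thus disagreed on which side of the reference a tumor lay.

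With p110-121 the adenosquamous carcinomas averaged 0.10 above the solid carcinomas for Vangl1 (SE 0.55, limma adjusted p = 0.982), and without it 0.24 below. The p75 mean was 0.44 above the p110 mean (SE 0.42, limma adjusted p = 0.694), 0.07 above it without p110-121 and 1.68 above it with median centering (limma adjusted p = 0.0809). At the second Vangl1 probe the differences over all tumors had the same sign as at the brightest probe. They were 0.27 by histology and 0.63 by transgene (limma adjusted p = 0.938 and 0.483).

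Vangl2 was measured at its brightest probe in 8 tumors, from −0.10 in p75-129 to 0.94 in p75-94, with 2.03 in p110-143 apart. Another Vangl2 probe, A_52_P496772, read 2.08 in that tumor and at most 0.40 elsewhere. At the brightest probe neither comparison passed, with differences of 0.24 (SE 0.40, limma adjusted p = 0.926) by histology and 0.16 (SE 0.30, limma adjusted p = 0.864) by transgene. The first was 0.086 without p75-94 and 0.47 without p110-143, and the second was 0.42 without p110-143 and −0.10 without the 3 tumors of weakest signal.

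The Vangl2 probe nearest the 3′ end, A_51_P472608 (chr1:171971424-171971483, mm7), read a difference between the transgenes. In the p75 tumors it ran from −0.031 over a median of 0.45 to 0.92, and in the p110 tumors from −0.40 over a median of −0.27 to −0.057, so that the groups did not overlap. Fitted with every probe on its own, the difference was 0.71 (SE 0.12, 95% interval 0.45 to 0.96) and passed limma's test (adjusted p = 0.0181). It was the only probe called among the 19, beside 196 of 41174 probes over the array (0.476%), and 0.147% of all probes placed every p75 tumor above every p110 tumor and 0.0635% below. The probe was measured in 4 p75 tumors and 1 p110 tumor, so most of the ratios come from tumors in which it was not measured. In the solid carcinomas alone the p75 values were 0.24 to 0.87 (n = 3) and the p110 values −0.40 to −0.057 (n = 6). As the full groups did not overlap, no part of them could, so this adds no support. The difference there was 0.74 and did not pass (limma adjusted p = 0.67). It did not pass either with histology as covariate (0.66, limma adjusted p = 0.282) or without the 3 tumors of weakest signal (0.65, limma adjusted p = 0.0973). The other 3 Vangl2 probes gave 0.16, −0.16 and −0.046, none of which passed, so the probes of this gene disagreed.

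Prickle1, the cytoplasmic partner of the Vangl proteins, was above the reference in 16 tumors. In the adenosquamous carcinomas it was 1.10, 1.31, 1.38 and 1.10, a narrow range inside that of the solid carcinomas, which ran from 0.37 over a median of 1.001 to 2.32 in p75-534. The difference of 0.24 (SE 0.29) did not pass (limma adjusted p = 0.906). It ran from 0.16 to 0.40 on leaving out 1 tumor and was −0.16 in p75 tumors alone. The p75 tumors averaged 0.58 above the p110 tumors (SE 0.28, 95% interval 0.00 to 1.17), with overlap and a limma adjusted p of 0.36, 0.31 above them without the 3 tumors of weakest signal and 1.10 above them with median centering (limma adjusted p = 0.0842). Prickle1 was not well above background in p110-98, p110-225 and p110-374, the tumors with the lowest shares of bright spots. The second Prickle1 probe, measured in 2 tumors, gave differences of the opposite sign. They were −0.34 by histology and −0.14 by transgene (limma adjusted p = 0.888 and 0.843).

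In the p75 against p110 comparison, limma called 145 of 28786 genes (0.504%), 60 of them higher and 85 lower in p75 tumors, at an adjusted p under 0.05. The calls fell to 4 with histology as covariate and to 0 within the solid carcinomas, and with median centering 93.3% of 1204 calls were higher in p75. None of the 10 genes was called at its brightest probe, while 3 of them (Ror2, Ptk7 and Prickle1) had an unadjusted p under 0.05, as had 3993 of all genes (13.9%). Between adenosquamous and solid carcinomas limma called 0 of 28786 genes (0%), although 1581 genes (5.49%) had an unadjusted p under 0.05. None of the 9 genes tested here, Wnt5b being described only, had an unadjusted p under 0.05. Leaving out p75-101, the adenosquamous tumor with low Wnt expression, gave 26 called genes in the histology comparison. None of the tested genes was among them, with Ror1 left out of this check.

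**Figure D4:**
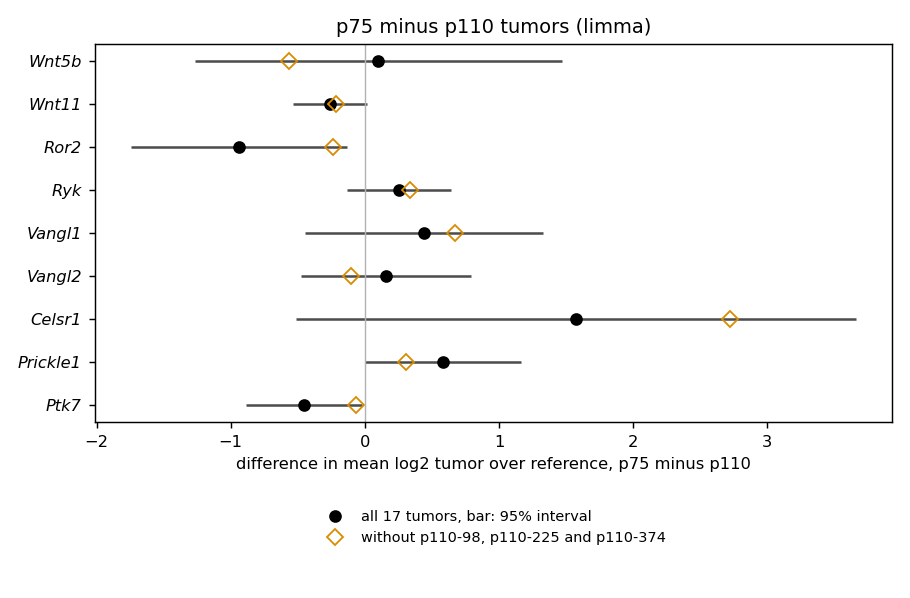
Difference of the mean log2 ratio between the 9 p75 and the 8 p110 tumors for the 9 genes measured in any tumor (horizontal axis, log2). Filled points with bars are all 17 tumors with 95% intervals from limma, and open diamonds leave out p110-98, p110-225 and p110-374. Points right of 0 are higher in p75 tumors. Ror2 (−0.94), Ptk7 (−0.46) and Prickle1 (0.58) had the lowest p, no gene passed the adjusted threshold, and with median centering Ror2 and Ptk7 turned to 0.12 and 0.26 and Celsr1 passed at 2.85.

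No further gene of the branch, taken from lists of pathway genes, was called in either comparison. Of the other ligands, Wnt5a was measured in no tumor, Wnt7a in 1, Wnt4 in 2 and Wnt7b in 9. Of 31 further planar cell polarity genes, 29 were found on the array by name and 17 were measured in at least 12 tumors. Their median difference was 0.05 by histology and 0.04 by transgene, beside −0.01 and 0.00 over all genes. Of 22 genes of the Wnt calcium branch, which runs over phospholipase C and the NFAT factors, 11 were measured in at least 12 tumors, with medians of −0.07 and −0.05.

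The genes whose pattern over the 17 tumors was most like that of Wnt5b, among 9469 genes measured in at least 12 tumors, were none of the other 9 genes. They included Car2, a carbonic anhydrase (r = 0.88), Vdr, the vitamin D receptor (r = 0.85), Enpp4 (r = 0.84) and Dnttip1 (r = 0.83). Car2 ran from 0.14 to 5.77 and Vdr from −0.81 to 2.75. Zfp385a (r = −0.86), 2310043J07Rik (r = −0.86) and 9030617O03Rik (r = −0.84) ran most against it. Within the p75 tumors alone and the p110 tumors alone, r was 0.88 and 0.90 for Car2 and −0.84 and −0.90 for Zfp385a. Of the other members, r with Wnt5b was highest for Prickle1 (0.34) and lowest for Ror2 and Ptk7 (−0.52 each). These correlations share 1 reference, the same arrays and the differences in signal strength, and are a description.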

How the data were processed

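The authors scanned 38 arrays with Agilent's Feature Extraction, and the deposited scanner files hold intensity values of both colors, local background and quality marks, with probe positions on mm7. The deposited table of log2 ratios of tumor over reference was checked against the scanner files and matched normexp (offset 50), loess and averaging of dye swaps to within 4.98e-08; it served as an alternative. Here the same steps were run in R 4.3.3 with limma 3.58.1 and statmod 1.5.0, leaving out control spots and outlier spots (0.545%). Spots of a probe, then arrays of a tumor, were averaged, so n counts tumors. Where a gene had several probes, the brightest was used. RefSeq (GRCm38.p6), used for gene names and for the chromosomes of the member genes, held the accessions of 22951 of 41174 probes (55.7%).

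The comparisons were limma fits over all 28786 genes without covariates, with the histological types or the transgenes as groups, at a Benjamini-Hochberg adjusted p of 0.05. Single values also had exact two-sided permutation tests. The 10 genes, the pathway lists and the markers were chosen with earlier results of these data known. The text names these 10 genes, called genes of the pathway lists (there were none), and the 5 highest and 3 lowest correlations with Wnt5b, of which 1 is not reported here. Alternatives were other background, scaling, probe, dye and signal choices, covariates, blocks and leaving out tumors. Precision is limited by the number of tumors. The other ligands, Daam1, Nfatc4, the probe A_51_P472608 and the tumors grouped by Wnt5b and Celsr1 were singled out after their values were seen.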

Additional observations from a re-analysis of the deposited data

Results flagged for a closer look

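In groups of 4 to 10 tumors, the gap of the highest or lowest tumor to its neighbor was compared with Dixon's critical value for 16 probes. Of 64 groups looked at, 10 had a tumor set apart, where chance gives about 1 in 20 groups, and groups share tumors.

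At the 5′ probe of Wnt5b, p110-314 stood at 1.72, against 0.61 for the next solid carcinoma and 0.57 for the next p110 tumor. The same tumor had the highest Wnt5b at the 3′ probe, 4.89. At the brightest Vangl1 probe, p110-121 stood at −2.56, against −0.33 for its neighbor among both the solid carcinomas and the p110 tumors. This is the tumor in which the immune markers averaged 2.00 and the epithelium markers −1.88, and the part of these in the Vangl1 value was not tested.

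A pair of Vangl2 probes set p110-143 apart among solid carcinomas and among p110 tumors, at 2.03 (next 0.57) and 2.08 (next 0.40). A further Vangl2 probe was not well above background in p110-143 (−0.24). At the brightest Prickle1 probe p75-534 stood at 2.32 among the solid carcinomas (next 1.35), and at the second Prickle1 probe p75-150 stood at 1.31 among the p75 tumors (next 0.14).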

How the results depend on the processing

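No paired analysis was possible because the replicate numbers of the groups only name tumors of different mice. The number of genes called between adenosquamous and solid carcinomas was 0 in every alternative except Feature Extraction's processed signals (1), and leaving out 1 tumor gave 0 to 26, with 26 without p75-101 and 1 without p75-94 or p75-129. Between p75 and p110 tumors the 145 calls became 223 without background correction, 304 with Feature Extraction's signals, 1204 with median centering in place of loess, 67 with scaling between arrays, 327 with the Cy5-labelled and 69 with the Cy3-labelled tumor arrays alone, 1654 on the tumor's color alone, 218 with signal strength as covariate, 87 without the 3 weakest tumors, 4 with histology as covariate and 0 in solid carcinomas alone (1483 at an unadjusted p under 0.05). Leaving out 1 tumor gave 42 to 1102 calls, with 1102 without p110-314 and 109 without p110-121. The share of calls higher in p75 was 41.4%, against 93.3% with median centering, 53.7% with scaling, 52.0% with Feature Extraction's signals, 53.8% on the tumor's color, 70.1% without the weakest tumors, 28.1% on Cy5, 28.7% without background correction and 13.5% after the filter on dim genes.

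Of 603 recomputed differences of 9 genes, 565 kept their sign, 38 changed it, and 1 passed the threshold, Celsr1 between p75 and p110 with median centering (2.85, adjusted p = 0.0484). Median centering also turned Ror2 (0.12) and Ptk7 (0.26). Wnt5b between p75 and p110 became −0.24 with Feature Extraction's signals, −0.55 with scaling, −0.038 with the mean of probes, −0.085 on Cy3, −0.11 and −0.086 with slide or scan day as block, −0.24 with signal strength as covariate and −0.56 without the weakest tumors, and ran from −0.14 to 0.48 on leaving out 1 tumor. Vangl2 became −0.00079 with slide as block, −0.10 without the weakest tumors, −0.093 with histology and −0.29 in solid carcinomas, and Ryk −0.20 on the tumor's color, −0.049 with histology and −0.0077 in solid carcinomas. By histology, Prickle1 became −0.055 with the mean of probes, −0.13 with transgene as covariate and −0.16 in p75 tumors alone. Vangl1 became −0.027 on Cy3, −0.024 and −0.012 with slide or scan day as block, −0.21 with transgene and −0.41 in p75 tumors, and ran from −0.24 to 0.26 on leaving out 1 tumor. Wnt11 became 0.15 on the tumor's color, 0.10 with transgene and 0.11 in p75 tumors, and Ptk7 0.10 and 0.036 on the tumor's color and with transgene. The Vangl2 probe A_51_P472608, whose alternatives were chosen after seeing the data, kept its call in 12 of 15 of them (0.52 to 2.56) and on leaving out each tumor (0.65 to 0.77). The Wnt5b difference of −2.09 between the high-Wnt and the low-Wnt cluster became −1.27 with the mean of probes, −1.05 on the tumor's color and −2.46 to −1.83 on leaving out 1 tumor. Of the 5 genes most like Wnt5b, 5 were kept with the authors' table and with the filter, 3 with Feature Extraction's signals and 2 each without background correction, with median centering and with scaling. The cause of these changes was not tested.

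Genes not well above background in a tumor have an uncertain ratio there, which touches Ror1 in every tumor, Vangl2 in 9, Wnt11 in 5, Prickle1 in 3, Wnt5b in 2 and Vangl1 and Celsr1 in 1 each.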

Other observations

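Within the pathway lists no gene passed in either comparison, and the lowest adjusted p belonged to genes picked here after their values were seen. Daam1, which links Dishevelled to the actin cytoskeleton in planar cell polarity, was 1.10 higher in p75 than in p110 tumors (limma adjusted p = 0.0819). Nfatc4, a transcription factor activated by calcium signals, differed by −0.60 (p75 minus p110), with a limma adjusted p of 0.0962. By transgene, 7 of 29 planar cell polarity genes and 3 of 22 Wnt calcium genes had an unadjusted p under 0.05, beside 13.9% of all genes.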
